A study of Mus musculus with 6 samples.

Results

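Transcripts of 9 junction genes (Cldn5, Cldn12, Ocln, Marveld2, Esam, Jam2, Pecam1, Tjp1 and Cgn) were examined in NG2-lineage cells from spinal cords of mice with experimental autoimmune encephalomyelitis (EAE), in which an induced autoimmune response inflames brain and spinal cord. They were taken by symbol as a set of endothelial tight junction genes, and all 9 were found among the 38293 Ensembl identifiers of the deposited count table. The data were 6 bulk RNA-seq libraries, 3 from EAE mice and 3 from Control mice. All mice in both groups were female and had the genotype NG2-CreERTM:Rosa-tdTomato/+:Cx3cr1GFP/+, in which a tamoxifen-inducible Cre recombinase under the NG2 promoter switches on the red protein tdTomato. Cells were taken from whole spinal cord and sorted for tdTomato, with Sytox blue used to leave out dead cells. NG2 is made by oligodendrocyte precursors and by pericytes, so the reporter is not one for endothelium. Endothelial transcripts were present in these libraries all the same, and how they came to be there was not tested. Ages, the day of disease, the way EAE was induced, the tamoxifen schedule and the number of mice behind each library are not stated in the labels. With nothing to say that the 3 libraries of a group came from separate animals, p-values measure the spread between these libraries.

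Tight junctions seal the gap between neighbouring endothelial cells and, in brain and spinal cord, form the physical part of the blood-brain and blood-spinal cord barrier. Claudins and the MARVEL-domain proteins occludin and tricellulin span the membrane and meet their partners on the next cell, immunoglobulin-like adhesion molecules hold the contact together, and cytoplasmic scaffolds such as ZO-1 tie these proteins to actin. Loss of occludin, claudin-5 or ZO-1 staining from vessels is a known feature of inflamed central nervous system tissue. The values here are of RNA in sorted cells and not of protein or of junctions.

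Of the 9 genes, 4 fell in EAE libraries by 4.68-fold to 6.57-fold, namely Ocln, Esam, Cldn5 and Pecam1. The other 5 were not called, and their log2 fold changes ran from -1.52 for Cgn to 0.09 for Jam2. Over all 16966 genes tested, 7.14% were called in either direction and 4.33% were called lower. No member was called higher in edgeR's quasi-likelihood test, which called 2.82% of all genes higher, and 0 of 9 is close to that share. At an unadjusted p under 0.05 in this test, 0 members were higher and 5 lower. DESeq2 and limma-voom also called 0 higher. Shares over all genes are not given here for the unadjusted p or these 2 tools. Levels are given as CPM, read counts scaled by library size with factors from the trimmed mean of M-values (TMM). The CPM range of the EAE libraries lay wholly below that of the Control libraries for 5 members, the called ones and Tjp1, against 13.4% of all genes. The median log2 fold change of the 9 members was -1.52, against 0.004 over all genes. That median is the value of Cgn itself, which had 0 to 52 reads per library and an SE of 1.40. It lies between the called genes and most of the others and describes neither. Without 1 library the number of all genes called dropped to 440 (Control library 1), 576 (Control library 2) or 630 (EAE library 1) of 1212, whereas Ocln, Esam, Cldn5 and Pecam1 stayed called in each of the 6 fits that left out a library.

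EAE library 3 and Control library 3 stood apart from the other libraries of their groups. EAE library 3 was at -100.2 on the first principal component of log2 CPM, against -44.1 and -38.3 for EAE libraries 1 and 2. On the second component Control library 3 was at -80.5, against 48.2 and 46.4 for Control libraries 1 and 2. Total counts ran from 26220351 to 28734798 in EAE libraries and from 22141522 to 25675547 in Control libraries. A count of 0 allows up to 3 reads, or 0.0997 to 0.139 CPM depending on the library, and this floor covers counting error only.

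To set the sequences beside the values, the 250 bases before a RefSeq start site (GRCm38.p6, 5′ to 3′ on the gene's strand) are shown for Cldn5 and Ocln, which fell, and for Cldn12 and Tjp1, which were not called. For Ocln and Cldn12, which have several RefSeq starts, the window is that of the start farthest upstream, and the Tjp1 start lies inside the longer GENCODE gene. The windows are chr16:18776597-18776846 (plus strand) for Cldn5, chr13:100552719-100552968 (minus) for Ocln, chr5:5514977-5515226 (minus) for Cldn12 and chr7:65371245-65371494 (minus) for Tjp1. Capitals mark matches, on either strand, to the short cores of 3 motif families with known members in endothelium: GGAAG (ETS), ACAAT (SOX) and CTTTG (TCF and LEF).
Cldn5: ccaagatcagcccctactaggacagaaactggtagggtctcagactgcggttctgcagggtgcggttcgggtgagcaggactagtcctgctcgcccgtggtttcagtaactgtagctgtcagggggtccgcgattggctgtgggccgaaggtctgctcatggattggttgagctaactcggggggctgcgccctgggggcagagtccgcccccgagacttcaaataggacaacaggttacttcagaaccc
Ocln: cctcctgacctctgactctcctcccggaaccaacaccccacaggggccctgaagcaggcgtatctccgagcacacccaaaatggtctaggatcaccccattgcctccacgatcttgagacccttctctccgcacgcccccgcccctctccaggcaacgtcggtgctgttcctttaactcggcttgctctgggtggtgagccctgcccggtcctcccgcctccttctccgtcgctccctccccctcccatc
Cldn12: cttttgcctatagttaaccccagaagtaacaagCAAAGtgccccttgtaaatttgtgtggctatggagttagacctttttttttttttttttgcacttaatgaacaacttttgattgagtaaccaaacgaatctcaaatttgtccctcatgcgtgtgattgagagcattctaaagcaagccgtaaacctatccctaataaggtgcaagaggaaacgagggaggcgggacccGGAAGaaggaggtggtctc
Tjp1: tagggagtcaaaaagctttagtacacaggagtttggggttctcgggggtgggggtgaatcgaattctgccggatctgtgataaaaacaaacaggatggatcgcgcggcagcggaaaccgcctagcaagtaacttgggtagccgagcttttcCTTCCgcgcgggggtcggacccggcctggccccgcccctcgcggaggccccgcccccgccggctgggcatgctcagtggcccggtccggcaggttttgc
The Cldn5 and Ocln windows held none of the 3 cores. The Cldn12 window shown held 1 ETS core and 1 TCF and LEF core, and the Tjp1 window held 1 ETS core. Of the uncalled genes whose windows are not shown, Cgn also held none of the cores, and Marveld2 held 2 ETS cores in each window. Among 32851 promoter windows of this length, 64.1% held GGAAG, 27.7% held ACAAT and 48.6% held CTTTG, so each core is common. GC content was 59.6% in the Cldn5 window, 64.0% in the Ocln window, 42.0% in the Cldn12 window and 63.2% in the Tjp1 window. These values depend on the start chosen: the other Cldn12 windows, at starts farther downstream, had GC contents of 65.2% and 58.8%, held 2 and 1 ETS cores and no TCF and LEF core, and the other Ocln window had a GC content of 69.2% and none of the cores. RefSeq promoters were matched for 6 of the 9 genes, 10 windows in all. Esam and Pecam1, which fell, and Jam2 had no entry. A link between the cores and the changes was not tested.

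**Figure D1:**
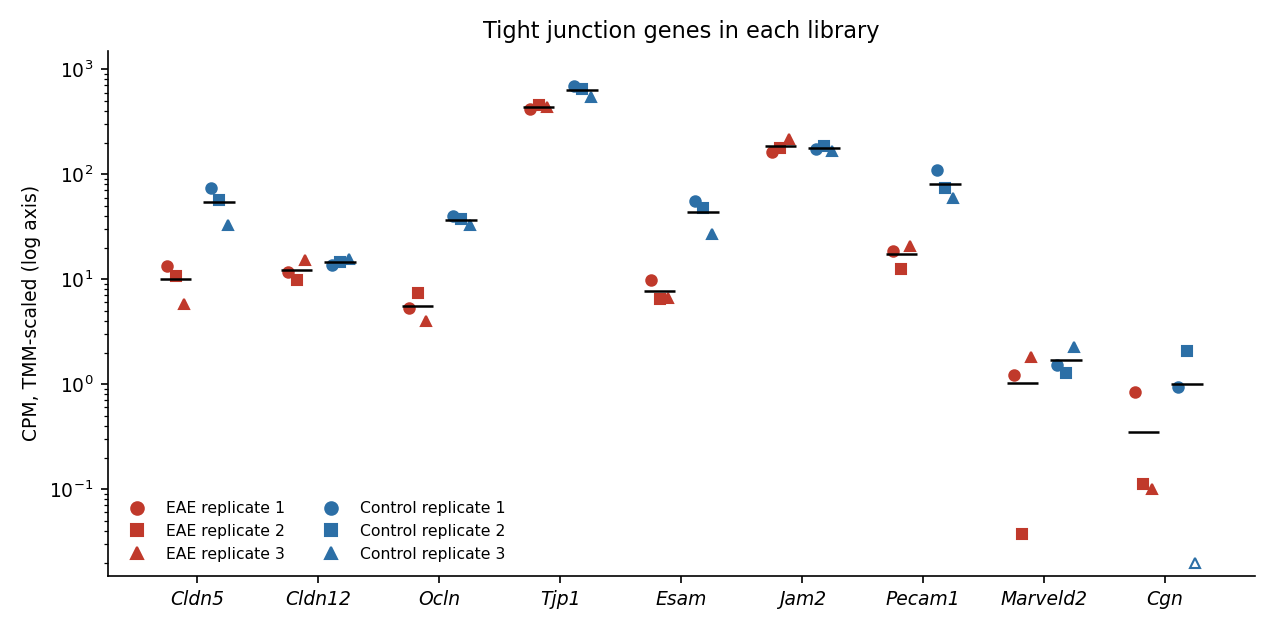
Level of each of the 9 junction genes in every library, as TMM-scaled CPM on a log axis. Red marks are EAE and blue marks are Control libraries, shapes give the replicate, bars are group means, and the open mark at the lower edge is a library with 0 reads (Cgn in Control library 3). The EAE libraries lie below all Control libraries for Cldn5, Ocln, Tjp1, Esam and Pecam1 and overlap with them for the other 4 genes.

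The first of the claudins, Cldn5 (ENSMUSG00000041378, chr16:18776847-18778262), encodes the main claudin of central nervous system endothelium, which holds back small molecules. It was at 13.3, 10.7 and 5.82 CPM in EAE libraries 1, 2 and 3, against 74.5, 56.2 and 32.7 CPM in Control libraries 1, 2 and 3. All EAE libraries were below all Control libraries, and library 3 was the lowest of each group. Cldn5 fell 5.48-fold, with a log2 fold change of -2.45 ± 0.38 (SE, n = 3 each; edgeR quasi-likelihood test, adjusted p = 0.00705). The fold ran from 4.47 to 6.58 when a library was left out. Cldn12 (ENSMUSG00000046798, chr5:5489537-5514958), a claudin that many cell types express, was at 11.7, 9.76 and 15.3 CPM in EAE libraries 1, 2 and 3, against 13.6, 14.7 and 15.55 CPM in Control libraries 1, 2 and 3. The groups overlapped, with EAE library 3 close to the Control libraries. Its log2 fold change of -0.25 ± 0.25 (SE, n = 3 each) did not pass the threshold (edgeR, adjusted p = 0.658).

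Ocln (ENSMUSG00000021638, chr13:100496507-100552718) encodes occludin, a membrane protein of the tight junction strands. Its level was 5.34, 7.34 and 4.02 CPM in EAE libraries 1, 2 and 3, against 39.8, 37.2 and 32.7 CPM in Control libraries 1, 2 and 3. The Control libraries lay close together, and every EAE library was far below them. Ocln had the largest fall of the 9 genes, 6.57-fold, with a log2 fold change of -2.72 ± 0.27 (SE, n = 3 each; edgeR, adjusted p = 0.00123), and the fold ran from 5.72 to 7.81 when a library was left out. Marveld2 (ENSMUSG00000021636, chr13:100595957-100616971) encodes tricellulin, which seals the corners where several cells meet, and lies on the same strand as Ocln with 43238 bases between the genes. It had 33, 1 and 55 reads in EAE libraries 1, 2 and 3, against 37, 32 and 49 reads in Control libraries 1, 2 and 3, so that EAE library 2 alone was near 0. These reads amount to 1.03 ± 0.910 CPM in EAE and 1.69 ± 0.512 CPM in Control libraries (SD, n = 3 each). A log2 fold change of -0.71 ± 1.00 (SE) was not called (edgeR, adjusted p = 0.77), and it ran from -1.41 without EAE library 3 to -0.15 without EAE library 2. The SE of Marveld2 was wider than the difference itself.

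Of the immunoglobulin-like adhesion molecules, Esam (ENSMUSG00000001946, chr9:37528078-37538319) is found at endothelial junctions and on platelets. Esam was at 9.87, 6.41 and 6.65 CPM in EAE libraries 1, 2 and 3, against 56.0, 47.6 and 26.7 CPM in Control libraries 1, 2 and 3. Control library 3 was the lowest of its group and still above every EAE library. The fall was 5.68-fold, a log2 fold change of -2.51 ± 0.32 (SE, n = 3 each; edgeR, adjusted p = 0.00316). Pecam1 (ENSMUSG00000020717, chr11:106654217-106750628) encodes CD31, an adhesion molecule of endothelial contacts that platelets and leukocytes also carry. In EAE libraries 1, 2 and 3 it was at 18.4, 12.6 and 20.7 CPM, against 109, 73.6 and 59.0 CPM in Control libraries 1, 2 and 3. No EAE library reached the lowest Control library. Pecam1 fell 4.68-fold, a log2 fold change of -2.23 ± 0.28 (SE, n = 3 each; edgeR, adjusted p = 0.00291). When a library was left out, the fold ran from 4.86 to 6.78 for Esam and from 3.85 to 5.31 for Pecam1. Jam2 (ENSMUSG00000053062, chr16:84774123-84825928), a junctional adhesion molecule of endothelium and other cells, was at 164, 179 and 218.5 CPM in EAE libraries 1, 2 and 3, against 176, 186 and 167 CPM in Control libraries 1, 2 and 3. EAE library 3 was the highest of all and the groups overlapped. Its log2 fold change of 0.09 ± 0.15 (SE, n = 3 each) was not called (edgeR, adjusted p = 0.814), and it was -0.026 without EAE library 3.

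Among the cytoplasmic proteins, Tjp1 (ENSMUSG00000030516, chr7:65296165-65527781) encodes ZO-1, a scaffold that links junction proteins to actin in many cell types. Tjp1 was at 419, 451.5 and 438 CPM in EAE libraries 1, 2 and 3, against 696, 649 and 549.85 CPM in Control libraries 1, 2 and 3. The ranges did not overlap, and the EAE libraries lay close together. The ratio was 1.45-fold lower in EAE, a log2 fold change of -0.53 ± 0.15 (SE, n = 3 each), which edgeR did not call (adjusted p = 0.068) and DESeq2 did (adjusted p = 0.00817). The edgeR adjusted p ran from 0.0594 to 0.231 when a library was left out. Cgn (ENSMUSG00000068876, chr3:94760069-94786492) encodes cingulin, an adaptor best known from epithelial tight junctions. It had 23, 3 and 3 reads in EAE libraries 1, 2 and 3, against 23, 52 and 0 reads in Control libraries 1, 2 and 3. Single libraries made up most of the reads in each group, and the groups overlapped. The level was 0.353 ± 0.428 CPM in EAE and 1.01 ± 1.05 CPM in Control libraries (SD, n = 3 each). Its log2 fold change of -1.52 ± 1.40 (SE) was not called (edgeR, adjusted p = 0.628), and it ran from -3.18 without EAE library 1 to -0.43 without Control library 2.

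**Figure D2:**
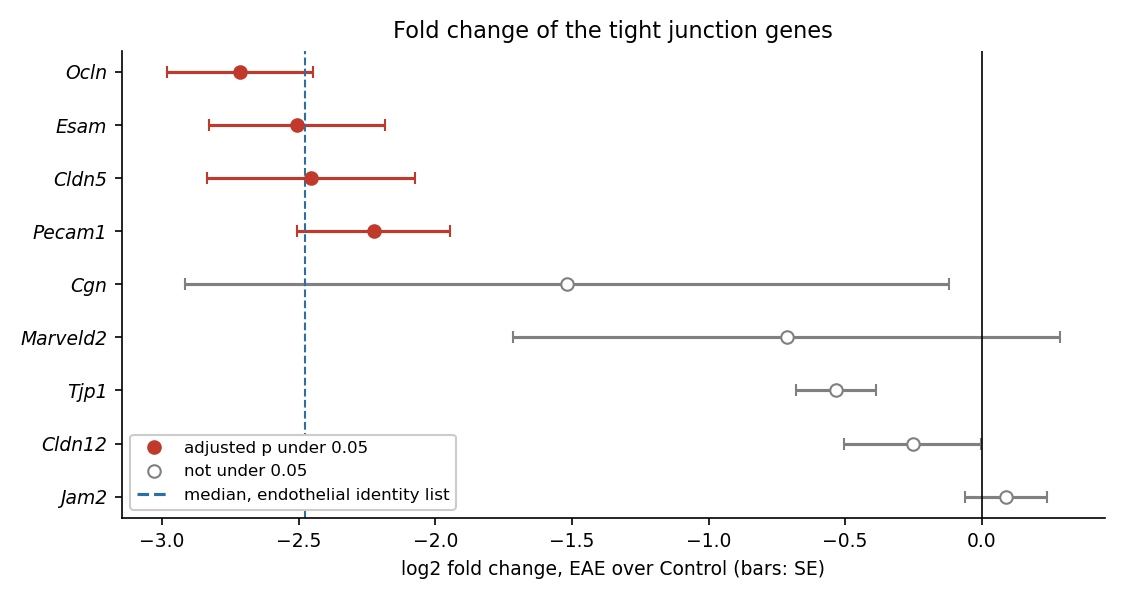
Log2 fold change of each junction gene, EAE over Control, with its SE as the bar (n = 3 each), ordered from the largest fall at the top. Filled red points passed an adjusted p under 0.05 in edgeR, and the dashed line is the median of the endothelial identity genes, -2.48. The 4 called genes lie between -2.72 and -2.23, around that line, and Cgn and Marveld2 have the widest bars.

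The 4 calls held without either of the libraries that stood apart. Without EAE library 3 the log2 fold changes of Cldn5, Ocln, Esam and Pecam1 were -2.17, -2.52, -2.40 and -2.36 in this order, and without Control library 3 they were -2.72, -2.79, -2.76 and -2.41. The edgeR adjusted p of these 8 values was at most 0.00779. Control library 1 had the highest level of each of the 4 genes, and without it the log2 fold changes were smaller, at -2.16, -2.65, -2.28 and -1.94, with adjusted p of at most 0.0383.

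Levels were compared between genes per kilobase of exon (CPM per kb, by the deposited feature length). In EAE libraries Tjp1 was highest, with 59.3 ± 2.20 CPM per kb (SD, n = 3), followed by Jam2 with 31.9 ± 4.78 CPM per kb. Cldn5 was next with 7.04 ± 2.70 CPM per kb, then Pecam1 with 4.00 ± 0.973, Cldn12 with 2.94 ± 0.676, Esam with 2.67 ± 0.675 and Ocln with 1.32 ± 0.396 CPM per kb. The libraries of Cldn5 and Pecam1 overlapped, as did those of Pecam1 and Cldn12 and of Cldn12 and Esam, so these neighbours are not ordered beyond their spread. In Control libraries Tjp1 was again highest, with 85.8 ± 10.1 CPM per kb (SD, n = 3). There Cldn5 and Jam2 overlapped, with 38.5 ± 14.8 and 30.0 ± 1.67 CPM per kb, and so did Pecam1 with 18.7 ± 6.02, Esam with 15.2 ± 5.27 and Ocln with 8.66 ± 0.857 CPM per kb, each with its neighbour. Cldn12 followed with 3.51 ± 0.234 CPM per kb and lay below Ocln in every Control library, whereas in EAE libraries it was above Ocln. Marveld2 and Cgn were lowest in both groups, at up to 0.540 and 0.141 CPM per kb in any EAE library and up to 0.671 and 0.348 CPM per kb in any Control library.

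The make-up of the junction transcripts was computed as the share of each gene in their sum. The summed level of the 9 genes was 106.7, 108.7 and 113.2 CPM per kb in EAE libraries 1, 2 and 3, against 235.4, 206.4 and 161.3 CPM per kb in Control libraries 1, 2 and 3. Tjp1 made up 54.2% ± 2.02 of the sum in EAE and 43.1% ± 3.08 in Control libraries (SD, n = 3 each). The share of Jam2 was 29.1% ± 3.44 in EAE and 15.2% ± 2.44 in Control libraries. Cldn5 took 8.84%, 6.96% and 3.63% of the sum in EAE libraries 1, 2 and 3, against 22.4%, 19.3% and 14.3% in Control libraries 1, 2 and 3. Pecam1 took 3.65% ± 0.84 in EAE and 9.18% ± 1.39 in Control libraries, Esam 2.44% ± 0.68 in EAE and 7.37% ± 1.39 in Control libraries, and Ocln 1.21% ± 0.38 in EAE and 4.36% ± 0.40 in Control libraries. For these 6 genes the groups did not overlap, and the exact 2-sided permutation test gave 0.1, the smallest p that 3 against 3 libraries allow. Cldn12 made up 2.68% ± 0.55 in EAE and 1.80% ± 0.47 in Control libraries, with overlap (exact permutation p = 0.2). Shares of one sum are not independent of each other.

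**Figure D3:**
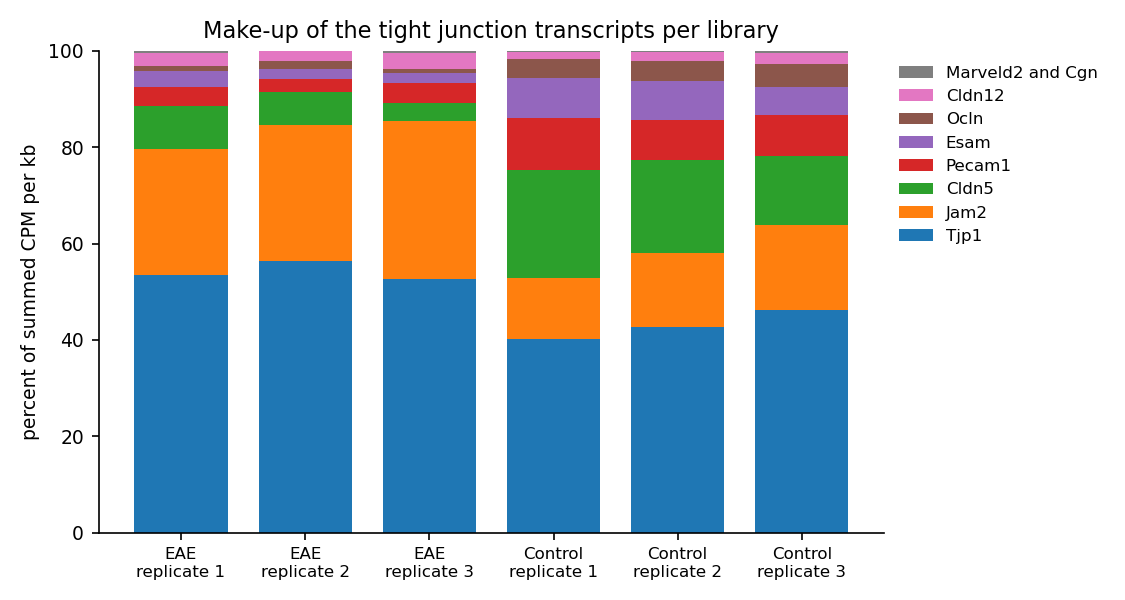
Share of each junction gene in the summed CPM per kb of the 9 genes, in percent, for each EAE and Control library. Tjp1 and Jam2 together fill the lower part of every bar and take more of it in the EAE libraries, where Tjp1 is at 52.6% to 56.4%, than in the Control libraries, where it is at 40.2% to 46.3%.

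Endothelial identity genes were lower in EAE as well. In a list of 20 endothelial identity genes, 18 were lower and 0 higher in EAE (edgeR quasi-likelihood test, adjusted p under 0.05), with a median log2 fold change of -2.48. At an unadjusted p under 0.05, 19 were lower and 0 higher, and both DESeq2 and limma-voom called 19 lower and 0 higher. The list's summed level was 370.2 to 508.9 CPM in EAE libraries and 1868 to 2750 CPM in Control libraries. Sox18, a transcription factor of endothelial cells, fell 8.86-fold (adjusted p = 0.00421), Cd34, a surface sialomucin, fell 6.99-fold (adjusted p = 0.000543), and Tie1, a receptor tyrosine kinase, fell 6.82-fold (adjusted p = 0.00564), all by edgeR. Vwf, a clotting factor of larger vessels, was at 31.8 ± 25.0 CPM in EAE and 51.0 ± 9.37 CPM in Control libraries (SD, n = 3 each) and was not called (edgeR, adjusted p = 0.501). Without EAE library 3, Vwf had a log2 fold change of -1.52 and Clec14a one of -2.44, and both were then called (edgeR, adjusted p = 0.0176 and 0.0152). With all libraries Clec14a was at -1.83 (edgeR, adjusted p = 0.0652). In these bulk libraries fewer cells of a type and less RNA per cell cannot be told apart.

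Each member was also set against the mean log2 CPM of those 20 genes in the same library. That mean was 3.78, 3.44 and 3.86 in EAE libraries 1, 2 and 3, against 6.35, 6.04 and 5.84 in Control libraries 1, 2 and 3. Relative to it, Cldn5 was at -0.035, -0.011 and -1.30 log2 units in EAE libraries 1, 2 and 3, against -0.13, -0.23 and -0.80 in Control libraries 1, 2 and 3, so that the groups overlapped and library 3 was lowest in both. The difference was -0.062 for Cldn5, -0.072 for Esam, -0.35 for Ocln and 0.18 for Pecam1, with exact 2-sided permutation p of 1, 0.7, 0.4 and 0.2 in this order (0.1 is the smallest possible). The sign of the Cldn5 and Esam differences turned with the libraries used: without EAE library 3 they were 0.36 and 0.096. The mean of the 20 genes was itself 2.38 log2 units lower in EAE, so a gene of unchanged CPM comes out about that much higher here. Jam2, Cldn12 and Tjp1 had log2 fold changes of 0.09, -0.25 and -0.53 in CPM, none called by edgeR. On this relative scale all their EAE libraries were above all Control libraries, by 2.46, 2.11 and 1.86 log2 units on average in this order. These gaps follow from the fall of the reference and show no gain of the 3 genes. Each of the 3 gave an exact permutation p of 0.1, or 0.3 after Benjamini-Hochberg adjustment over the 9 genes, which a design of this size cannot bring below the threshold. Against the 12 pericyte genes in place of the endothelial ones, the differences were 2.76 for Jam2, 2.41 for Cldn12, 2.16 for Tjp1, 0.48 for Pecam1, 0.24 for Cldn5, 0.23 for Esam and -0.054 for Ocln. The mean of the pericyte genes was itself 2.68 log2 units lower in EAE. Marveld2 and Cgn had too few reads for a relative level to be read, with differences of 0.99 and 1.56 that lay within the spread of their libraries.

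**Figure D4:**
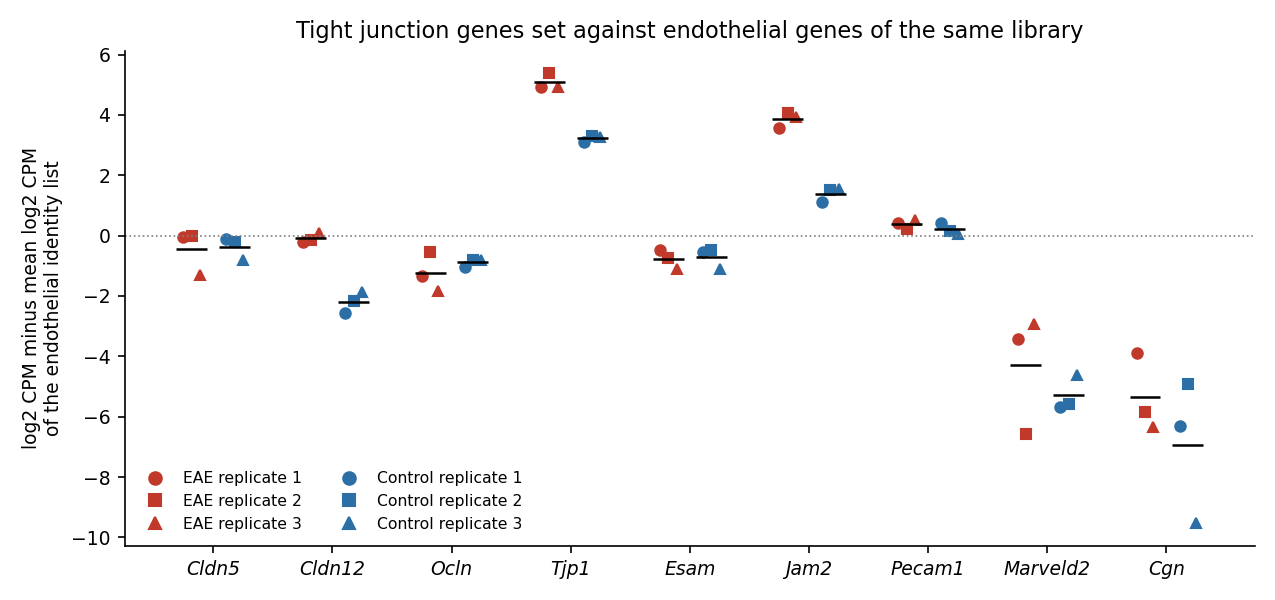
Level of each junction gene relative to endothelial genes: log2 CPM of the gene minus the mean log2 CPM of the 20 endothelial identity genes of the same library. Red marks are EAE and blue marks Control libraries, and bars are group means. The groups overlap for Cldn5, Ocln, Esam and Pecam1, and the EAE libraries are higher for Cldn12, Tjp1 and Jam2. The endothelial mean is itself 2.38 log2 units lower in EAE, so genes of little changed CPM lie higher on this scale.

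A list of other tight junction genes held claudins, adhesion molecules, scaffolds and polarity proteins. Of 28 listed, 27 had a row, 22 were tested and 3 were called lower and 0 higher by edgeR, with a median log2 fold change of -0.23. At an unadjusted p under 0.05, 7 were lower and 4 higher, and DESeq2 called 5 lower and 3 higher. F11r, which encodes the adhesion molecule JAM-A, fell 4.27-fold to 4.12 ± 0.973 CPM in EAE, against 17.6 ± 7.32 CPM in Control libraries (SD, n = 3 each; edgeR, adjusted p = 0.0154), and its call was lost without EAE library 1 (0.0586) or Control library 1 (0.0754). Lsr, an angulin that recruits tricellulin to cell corners, fell 4.16-fold (edgeR, adjusted p = 0.00125), but 44.7% of its exonic bases lie in other annotated genes and reads of these cannot be told apart here. Cgnl1, which encodes the cingulin relative paracingulin, fell 4.09-fold to 19.4 ± 0.493 CPM in EAE, against 79.2 ± 19.7 CPM in Control libraries (edgeR, adjusted p = 0.00127). Cldn11, the claudin of myelin sheaths, was at 1324 ± 330 CPM in EAE and 769 ± 134 CPM in Control libraries and was not called (log2 fold change 0.78 ± 0.22, edgeR, adjusted p = 0.073), though it was without EAE library 3 (adjusted p = 0.0102). Jam3, a relative of Jam2, was at 198 ± 38.0 CPM in EAE and 133 ± 9.16 CPM in Control libraries (log2 fold change 0.57 ± 0.17, edgeR, adjusted p = 0.0858, and 0.012 without EAE library 3), and 36.2% of its exonic bases lie in another gene. Cldn3, at times named as an endothelial claudin, had 0 reads in all 6 libraries.

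Adherens junctions lie beside tight junctions and hold the cells together through cadherins. Of 14 genes of this list 5 were called lower and 0 higher by edgeR, with 7 lower and 1 higher at an unadjusted p under 0.05 and 6 lower and 0 higher by DESeq2, and the median log2 fold change was -0.15. Cdh5, the VE-cadherin gene, fell 5.62-fold to 27.7 ± 8.31 CPM in EAE, against 156 ± 17.1 CPM in Control libraries (SD, n = 3 each; edgeR, adjusted p = 0.00101). Ptprb, the phosphatase VE-PTP that binds VE-cadherin, fell 5.09-fold (adjusted p = 0.001) and Vcl, the actin linker vinculin, fell 3.19-fold (adjusted p = 0.00271, with 25.5% of its exonic bases in another gene), both by edgeR. Cdh5 and Ptprb are also in the endothelial identity list. The catenin genes Ctnnb1 and Ctnnd1, which many cell types use, had log2 fold changes of -0.53 and -0.36 and were not called (edgeR, adjusted p = 0.107 and 0.192), and 61.2% of the exonic bases of Ctnnd1 lie in another gene.

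Wnt signalling through beta-catenin induces and keeps up the barrier, Cldn5 included, in central nervous system endothelium. Of 18 genes of this pathway and of linked transcription factors, 14 were called lower and 0 higher by edgeR, with a median log2 fold change of -1.84. At an unadjusted p under 0.05, 16 were lower and 0 higher, and DESeq2 called 15 lower and 0 higher. Without Control library 1 the count was 8, and without Control library 2 it was 9. Sox17, an endothelial transcription factor, fell 10.7-fold (edgeR, adjusted p = 0.00271, with 16.8% of its exonic bases in another gene), and Fzd6, a Wnt receptor, fell 5.61-fold (edgeR, adjusted p = 0.00271). Foxf2, a transcription factor of pericytes and endothelium, fell 6.10-fold (edgeR, adjusted p = 0.0161), a call lost without Control library 1 (0.0761) or 2 (0.071). The Wnt co-receptor gene Lrp6 and the feedback inhibitor gene Nkd1 had log2 fold changes of -0.43 and -0.96 and were not called (edgeR, adjusted p = 0.132 and 0.128).

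Of 15 genes of barrier transport, 11 were called lower and 0 higher by edgeR, with a median log2 fold change of -1.56. At an unadjusted p under 0.05, 14 were lower and 0 higher, DESeq2 called 12 lower and 0 higher, and 6 were lower without Control library 1. The thyroid hormone carrier Slco1c1 fell 6.13-fold (adjusted p = 0.00299) and the organic anion carrier Slc22a8 fell 6.04-fold (adjusted p = 0.001), by edgeR. Slc40a1, the iron exporter ferroportin, fell 7.76-fold (edgeR, adjusted p = 0.0197). Its call was lost without EAE library 2 (0.0586), Control library 1 (0.089) or Control library 2 (0.0676), and the log2 fold change of -2.96 became -3.56 without EAE library 1. The insulin receptor Insr and the transferrin receptor Tfrc, which other cells also use, had log2 fold changes of -0.41 and -0.63 and were not called (edgeR, adjusted p = 0.173 and 0.0687).

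Vesicle genes serve the route through the endothelial cell, beside the route between cells that tight junctions close. Of 7 genes 2 were called lower and 0 higher by edgeR, with 3 lower and 1 higher at an unadjusted p under 0.05, 2 lower and 1 higher by DESeq2, and a median log2 fold change of -0.54. The caveolar coat genes Cavin1 and Cavin2 fell 6.03-fold and 4.33-fold (edgeR, adjusted p = 0.00123 and 0.00403). The caveolin genes Cav1 and Cav2 had log2 fold changes of -0.19 and -0.38 and were not called (edgeR, adjusted p = 0.749 and 0.45), and Cav1 was at 0.047 without EAE library 2. Plvap, which encodes the diaphragm protein of fenestrated and leaky vessels and was singled out after its values were seen, was at 2.73, 1.38 and 8.74 CPM in EAE libraries 1, 2 and 3, against 0.123, 0.443 and 0 CPM in Control libraries 1, 2 and 3. All EAE libraries were above all Control libraries, EAE library 3 most, and the adjusted p was 0.0519 (edgeR, not called), 0.0462 without EAE library 2 and 0.00018 with DESeq2.

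**Figure D5:**
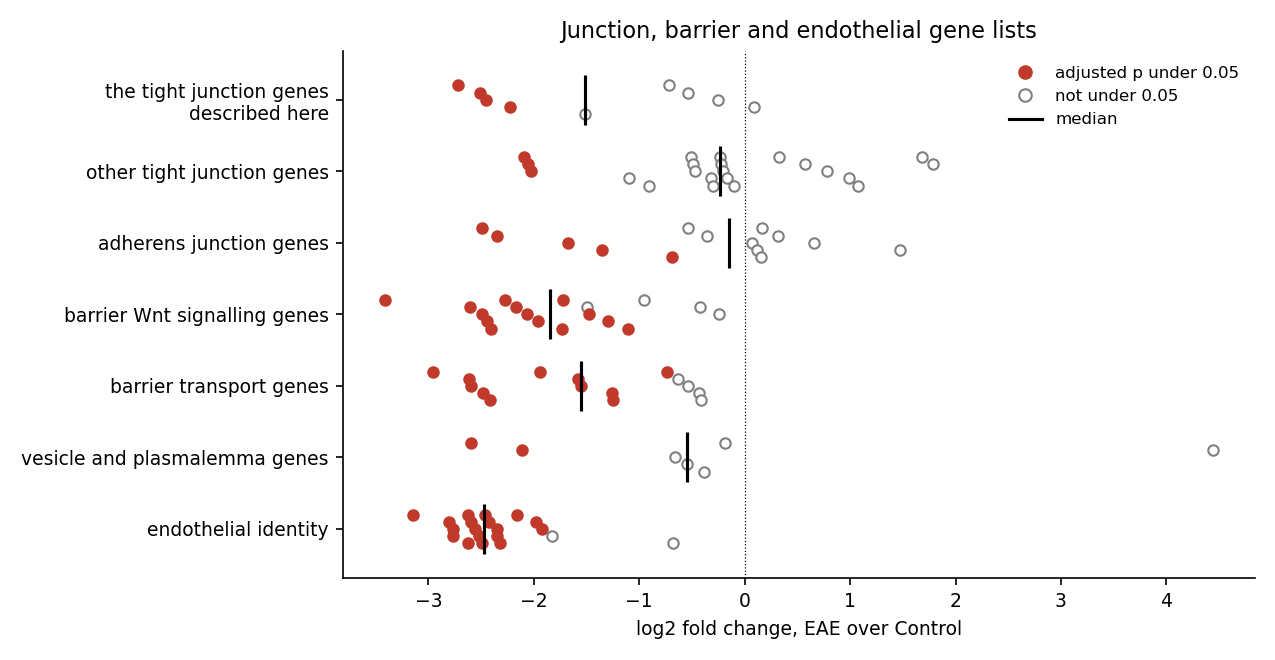
Log2 fold change, EAE over Control, of the tested genes of 7 lists, one point per gene, with the median of each list as a bar. Filled red points passed an adjusted p under 0.05 in edgeR. The medians are -1.52 for the 9 junction genes, -0.23 for other tight junction genes, -0.15 for adherens junction genes, -1.84 for barrier Wnt signalling genes, -1.56 for barrier transport genes, -0.54 for vesicle and plasmalemma genes and -2.48 for endothelial identity genes. The median of the 9 junction genes is the value of Cgn, a gene with few reads.

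Of the cells in the sort, pericyte and smooth muscle markers were lower in EAE. By edgeR 0 of 10 oligodendrocyte genes were called, and 2 of 9 oligodendrocyte precursor genes were called higher. Over all genes, 4.33% were called lower and 2.82% higher. The summed level of 12 pericyte genes was 892.7 to 1217 CPM in EAE libraries and 4181 to 7052 CPM in Control libraries, and 11 were called lower, among them Rgs5 at 416 ± 105 CPM in EAE and 2760 ± 675 CPM in Control libraries and Vtn at 120 ± 42.6 CPM in EAE and 930 ± 316 CPM in Control libraries. Smooth muscle genes summed to 18.7 to 30.0 CPM in EAE and 98.6 to 272.8 CPM in Control libraries, and 5 of 5 tested were called lower, with 2 called without EAE library 1 or Control library 1. Cspg4, the gene of NG2 itself, was at 206 ± 72.6 CPM in EAE and 359 ± 14.1 CPM in Control libraries and was not called (edgeR, adjusted p = 0.0764), with all EAE libraries below all Control libraries. It was called lower by DESeq2 (adjusted p = 0.0139) and, without EAE library 3, by edgeR, at a log2 fold change of -1.12 (adjusted p = 0.00176) against -0.80 with all libraries. Oligodendrocyte genes summed to 25800 to 45830 CPM in EAE and 30610 to 35980 CPM in Control libraries, with 0 of 10 called by edgeR, 0 lower and 1 higher at an unadjusted p under 0.05 and 1 higher by DESeq2. Oligodendrocyte precursor genes summed to 4415 to 5633 CPM in EAE and 2792 to 4175 CPM in Control libraries, and of 9 tested 2 were called higher (Vcan and Tnr) and 0 lower by edgeR, with 0 higher without Control library 1 or 2 and 1 without EAE library 1. At an unadjusted p under 0.05, 4 of these genes were higher and 1 lower, and DESeq2 called 4 higher and 1 lower. The part of these shifts in the levels of the junction genes was not tested.

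Pecam1 and Esam are made by blood cells too, and markers of those were read beside them. Of the 8 platelet genes, Gp9 had 0 reads in all 6 libraries, Pf4 was at 0 in all Control libraries and Treml1 in all EAE libraries, and the list summed to 17.1 to 19.1 CPM in EAE and 3.84 to 10.8 CPM in Control libraries. Gp1bb, the most abundant of them at 17.0 ± 1.56 CPM in EAE and 4.99 ± 1.75 CPM in Control libraries (SD, n = 3 each), was called higher (not without EAE library 1 or Control library 1) and shares 92.9% of its exonic bases with other genes. It made up most of the list's sum in the EAE libraries. Gp1ba, the only other platelet gene tested, was at 0.574 ± 0.406 CPM in EAE and 1.44 ± 1.11 CPM in Control libraries. Its log2 fold change of -1.33 was not called (edgeR, adjusted p = 0.461). Microglial and myeloid genes summed to 34.9 to 330 CPM in EAE and 29.5 to 40.8 CPM in Control libraries. Of 9 tested, 3 were called higher (Lyz2, Ptprc and Tyrobp), with 1 without EAE library 1 or 3, and 0 without Control library 1, 2 or 3. Lyz2 was at 105 ± 107 CPM in EAE and 0.570 ± 0.684 CPM in Control libraries (SD, n = 3 each). T and B cell genes summed to 0.447 to 12.8 CPM in EAE and 0.402 to 0.879 CPM in Control libraries, with none of 9 above the filter. The part of these cells in the levels of Pecam1 and Esam was not tested.

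Of the remaining lists, epithelial and ependymal genes summed to 27.4 to 30.3 CPM in EAE and 17.3 to 38.6 CPM in Control libraries, with Krt8 at 0 in all libraries, and Epcam was the 1 gene of 2 tested called higher. Fibroblast genes summed to 313.7 to 387.5 CPM in EAE and 256.3 to 395.1 CPM in Control libraries, most of it Pdgfra, and 3 of 7 tested were called lower, with 1 called without EAE library 1 or Control library 1. Pdgfra is also in the oligodendrocyte precursor list, so this sum does not read fibroblasts alone. The median log2 fold change of the fibroblast genes was -1.79, with 6 of 7 tested below 0. Astrocyte genes summed to 207.3 to 306.3 CPM in EAE and 203.1 to 361.8 CPM in Control libraries, with 1 of 8 called higher (Gfap). Neuronal genes summed to 60.6 to 120.6 CPM in EAE and 18.6 to 34.4 CPM in Control libraries, with 2 of 5 tested called higher (Tubb3 and Elavl4), and Slc17a6 was at 0 in all libraries. Most of the EAE sums was Tubb3, at 38.9, 39.8 and 99.3 CPM in EAE libraries 1, 2 and 3. The median log2 fold change of the neuronal genes was -0.23, with 3 of 5 tested below 0. Among these was Snap25, at -0.23 and not called (edgeR, adjusted p = 0.851). The call for Epcam was lost without EAE library 1 or Control library 2, that for Gfap without Control library 2, that for Tubb3 without Control library 1 or 2, and that for Elavl4 without any 1 library other than EAE library 2.

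Tjp1, the member with the highest level per kilobase, was matched with 9062 genes by the correlation of log2 CPM over the 6 libraries. The 5 most alike were Ifitm2, Prom1, Flrt2, Ece1 and Sparc, with Pearson's r of 0.995, 0.992, 0.990, 0.989 and 0.987 in this order. All 5 had EAE levels below all Control levels, as Tjp1 did, and the 6 libraries form 2 groups, so that such values describe these libraries only. Their falls were larger than the 1.45-fold difference of Tjp1 and ran from 1.83-fold for Sparc to 4.43-fold for Ifitm2, each called by edgeR (adjusted p = 0.0205 for Sparc and 0.00375 for Ifitm2). Calls were lost for Prom1, Flrt2 and Sparc without Control library 1 (edgeR, adjusted p = 0.0664, 0.0516 and 0.101), and for Prom1 and Sparc also without EAE library 1 (0.0582 and 0.0901) or Control library 2 (0.0647 and 0.0935).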

How the data were processed

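RNA from sorted tdTomato-positive cells of 6 mouse spinal cord samples was sequenced in bulk. The authors deposited raw counts of reads per Ensembl gene, whole numbers with no normalization, and the feature length of each gene. Per the submitters' processing notes, the tools were FastQC, STAR, featureCounts and edgeR 3.24.3, with the build mm10. The labels do not state annotation release, strand setting or treatment of reads with several matches, so reads of overlapping genes cannot be told apart. Shares of exonic bases in other genes were computed on GENCODE vM21, and by this annotation no member shared exonic bases with another gene. The deposited feature length differs from its exonic bases for some genes, such as Lsr (5008 against 2172), Vcl (5229 against 8191) and Pecam1 (4314 against 6228). The overlap within the features that were counted may therefore differ from these shares.

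Symbols and positions came from GENCODE vM21 (GRCm38) and were found for 36345 identifiers (94.9%). Genes were filtered with filterByExpr of edgeR 4.0.16 (minimum count 10, minimum total 15), scaled by TMM and tested by the quasi-likelihood F test with robust dispersion in R 4.3.3, with Benjamini-Hochberg adjustment over 16966 genes and a threshold of 0.05. An SE is the size of a log2 fold change over the square root of its F. CPM used TMM-scaled library sizes, and log2 CPM a prior count of 2. DESeq2 1.42.0, limma 3.58.1 (voom), other scalings, filters, a replicate block and leaving out each library were alternatives. The edgeR script was tested on simulated counts. The 9 genes and all lists were chosen with earlier results of these data known. All 9 members are named. From each pathway list the named genes are the 3 called genes with the largest changes at a mean of at least 5 CPM and the 2 most abundant uncalled ones, and from each marker list the most abundant. Genes like Tjp1 were sought at a mean of 10 CPM or more. Protein sequences were not used here.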

Additional observations from a re-analysis of the deposited data

How the results depend on the processing

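The number of all genes called was 1212, 2162 with DESeq2, 818 with the replicate number as a block and 440 to 1150 when a library was left out. By edgeR the count of junction genes called stayed at 4 lower and 0 higher under each scaling, filter and left-out library. With all libraries and the main filter, limma-voom also gave 4 lower and 0 higher, and DESeq2 gave 5 lower and 0 higher. Neither of these tools was run with other filters or with a library left out. Of 134 fold changes of the 9 genes under an alternative, 132 kept their direction and side of the threshold. The exceptions were Tjp1 with DESeq2 and Jam2, at -0.026 without EAE replicate 3 and up to 0.20 without other libraries. Of 720 such values of 48 pathway, marker and Tjp1-like genes, 642 kept both, 56 lost the call, 21 gained it and Cav1 turned to 0.047 without EAE replicate 2 (-0.47 without EAE replicate 3). The level relative to endothelial genes ran from -0.28 to 0.36 for Cldn5 and from -0.27 to 0.096 for Esam when a library was left out, and was 0.24 and 0.23 against pericyte genes. It kept its sign for the other 7 genes. The cause was not tested. Deviations from the group means had correlations of 0.016, -0.04 and -0.034 between samples with the same number. With 3 libraries per group such values cannot exclude a shared batch. The labels state no pairing, so the block pairs numbers only. Under it F11r (adjusted p = 0.0638 by edgeR), Sparc (0.078), Ptprc (0.121), Tyrobp (0.106) and Elavl4 (0.0952) lost their calls. Low reads of Marveld2 and Cgn limit what can be read of them.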
